A study of Mus musculus with 6 samples.

Results

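Acyl-CoA thioesterases are the enzymes that split an acyl-CoA into the free fatty acid and coenzyme A. Their transcripts were described here in livers of mice with a hepatocyte-specific knockout of AEG-1 (the gene Mtdh) and in control livers. The 9 genes Acot1, Acot2, Acot3, Acot4, Acot7, Acot8, Acot9, Acot12 and Acot13 were found by symbol among the 46983 rows of the gene count table, and each matched 1 row. They were set out as the cluster on chromosome 12 (Acot1 to Acot4) and the 5 members elsewhere. The family was selected on measured values, since Acot3 and Acot4 had stood out between these knockout and control libraries, so the differences between the groups below describe these libraries and support nothing by themselves.

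The mice were on a C57BL/6 background, 12 weeks old, chow-fed and untreated. The knockout group (AEG-1DHEP) held 3 livers. The control group (AEG-1fl/fl in the growth protocol, wild type in the sample titles) was deposited as 3 libraries. Control replicate 2 held the same value as control replicate 1 in each of the 46983 rows, so these columns were counted as 1 sample, and 2 distinct control libraries remained, replicates 1 and 3. The labels call the libraries biological replicates, and the promoter that drives Cre is not given in the sources used here.

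Acyl-CoA thioesterases act against the acyl-CoA synthetases, which activate fatty acids, and so set how much fatty acid is held as its CoA ester in each compartment of the cell. Unrelated protein folds carry the activity: Acot1 to Acot6 are alpha/beta-hydrolases encoded side by side in the mouse, and Acot7 to Acot13 are hotdog-fold enzymes encoded at scattered places. In liver the cluster genes are known as targets of PPAR-alpha, the fatty acid-sensing nuclear receptor that is active in fasting.

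The cluster genes are close copies, which bears on how reads could be told apart. The coding sequences of Acot1 and Acot2 were 95.2% identical and held an identical run of 273 bases. Acot3 was 83.9% identical to Acot1 and 84.0% to Acot2, and Acot4 was 76.6%, 76.5% and 75.2% identical to Acot1, Acot2 and Acot3. A stretch of 60 coding bases from that run, all on the plus strand of GRCm38, is shown with the bases that differ from Acot1 in capitals. It lies at chr12:84017032-84017091 in Acot1, chr12:83992754-83992813 in Acot2, chr12:84058679-84058738 in Acot3 and chr12:84043449-84043508 in Acot4, in coding exons of the GENCODE vM21 transcripts.
Acot1: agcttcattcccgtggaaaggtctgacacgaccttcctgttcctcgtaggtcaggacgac
Acot2: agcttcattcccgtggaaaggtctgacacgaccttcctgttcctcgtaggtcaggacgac
Acot3: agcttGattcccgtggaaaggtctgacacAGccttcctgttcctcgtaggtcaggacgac
Acot4: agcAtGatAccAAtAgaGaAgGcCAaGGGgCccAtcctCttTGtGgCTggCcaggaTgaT
In this stretch Acot2 did not differ from Acot1, Acot3 differed at 3 bases and Acot4 at 25. The stretch was taken from the identical run, so the match of Acot2 was set in advance. It does not stand for the whole coding sequences.

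Over all exon positions of the count table, 47.3% of the 50-base words of Acot1 also occurred in another gene, and 34.9% of all its words occurred in Acot2. The share was 27.7% for Acot2, 28.8% for Acot3 and 35.0% for Acot4. Outside the cluster it was 16.2% for Acot9, all in its intronless copy Acot10 (97.2% coding identity), 10.4% for Acot8, 3.13% for Acot12 and 0% for Acot7 and Acot13. How reads that match several genes were treated is not given in the sources used here, so the split of counts between Acot1 and Acot2 is uncertain. The antisense gene 4732463B04Rik overlaps 24.5% of the exon bases of Acot4 and 12.0% of those of Acot3. Whether counting used the strand is not given either, so reads of these genes and of their antisense partner cannot be told apart.

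The promoters of the cluster genes are shown because these genes are known as PPAR-alpha targets. RefSeq (GRCm38.p6) promoters matched 8 of the 9 members. The 130 bases below hold 100 bases before and 30 bases after each start site on the plus strand, at chr12:84009402-84009531 for Acot1, chr12:83987761-83987890 for Acot2, chr12:84052044-84052173 for Acot3 and chr12:84038279-84038408 for Acot4. Capitals mark the 6-base core AGGTCA of nuclear receptor sites, here on the opposite strand as TGACCT.
Acot1: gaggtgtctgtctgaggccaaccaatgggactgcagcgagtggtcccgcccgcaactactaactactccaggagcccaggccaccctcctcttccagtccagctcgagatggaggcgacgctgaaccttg
Acot2: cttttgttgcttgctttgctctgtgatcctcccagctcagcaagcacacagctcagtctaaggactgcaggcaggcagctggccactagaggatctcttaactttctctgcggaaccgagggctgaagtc
Acot3: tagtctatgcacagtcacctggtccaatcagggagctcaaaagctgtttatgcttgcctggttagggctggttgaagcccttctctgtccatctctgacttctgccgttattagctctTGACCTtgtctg
Acot4: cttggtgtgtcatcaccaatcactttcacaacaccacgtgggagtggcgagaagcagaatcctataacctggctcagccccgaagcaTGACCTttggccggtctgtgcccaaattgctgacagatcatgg
The core began at base 19 of the transcript in Acot3 and at position -13 in Acot4. Over the full window of 250 bases before to 50 bases after the start, on either strand, the core was found in Acot3, Acot4 and Acot12, 3 of 8 members, and in 16.3% of 32851 promoters. The DR1 arrangement that PPAR-alpha binds, with 2 such cores in direct repeat and 1 base between them, was searched letter for letter and occurred in 0 of the 8 members and in 0.0396% of the promoters. With 1 free base allowed in each core it was found in Acot12 and in 2.40% of the promoters. A match is only a description of these letters.

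Depth was even across the 5 distinct libraries, from 29557477 to 33685670 counts, so that 3 counts stood for 0.0891 to 0.101 CPM on the unscaled totals. All CPM values below, counts relative to library size, were scaled by TMM. Mtdh, the targeted gene, had 89, 74 and 76 counts in the knockout libraries against 1529 and 1612 in the controls, with a log2 fold change of -4.36 (SE 0.15, adjusted p = 0.000564, edgeR quasi-likelihood test). It was the only gene of 16441 tested that passed an adjusted p of 0.05 in this fit, which is 0.00608% of them. The liver label was borne out by Alb, which had 53690 to 80460 CPM in the 5 libraries and overlapped between the groups.

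In control livers the family was led by 2 hotdog-fold enzymes. Levels between genes are given as CPM per kilobase of exon. Acot13, also known as Them2, a thioesterase for long-chain acyl-CoAs, had 48.8 and 38.9 CPM per kb in control replicates 1 and 3. Acot12, the cytosolic acetyl-CoA hydrolase of liver, had 35.8 and 37.0 CPM per kb. Their means differed by 1.20-fold, about as much as the SD of Acot13 (6.97), whereas the next member lay 5.26-fold below Acot12.

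That next member was Acot7, a cytosolic long-chain enzyme best known from brain, with a mean of 6.91 ± 0.52 CPM per kb (SD, n = 2). The broadly acting peroxisomal Acot8 followed at 5.32 ± 0.043, the peroxisomal Acot4, which hydrolyses succinyl-CoA, at 4.47 ± 0.0078, and the cytosolic long-chain Acot1 at 3.71 ± 0.49. Acot2, the mitochondrial copy of Acot1, stood at 2.80 ± 0.038 and the mitochondrial Acot9 at 1.25 ± 0.067. The peroxisomal long-chain enzyme Acot3 was lowest, at 0.67 ± 0.14 CPM per kb. The control libraries of neighbours in this order did not overlap for any pair. With only unshared positions taken as the gene length, Acot1 moved from 3.71 to 7.04 CPM per kb, from place 6 to place 3.

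**Figure D1:**
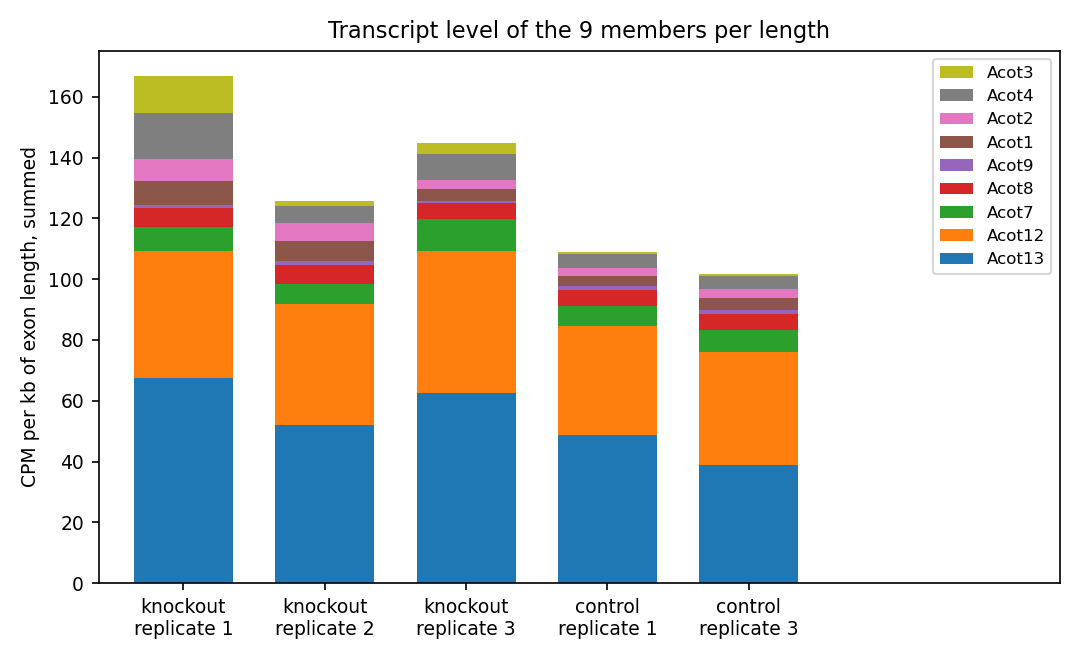
Level of each member in CPM per kilobase of exon, by library, for the knockout and control groups. Acot13 and Acot12 have higher values than all other members in every library, and Acot3 ranges from 0.573 to 12.1 CPM per kb.

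Acot3 had the widest spread of the 9 members in the knockout livers. It had 964, 128 and 287 counts in knockout replicates 1, 2 and 3 against 64 and 44 in control replicates 1 and 3, or 31.4, 3.86 and 8.96 CPM against 2.01 and 1.49. Every knockout library lay above both controls, and the highest knockout library was 8.13-fold above the lowest. The mean was 14.7 ± 14.6 CPM (SD, n = 3) against 1.75 ± 0.37 (SD, n = 2), a ratio of 8.42, and the fitted log2 fold change was 3.07 (SE 0.92). Without knockout replicate 1 it was 1.87 (SE 0.45). In whole liver, a change in RNA per cell and a change in the share of cells that make it cannot be told apart.

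Acot4, encoded just before Acot3, ordered the knockout livers in the same way. It had 38.3, 14.5 and 22.0 CPM in knockout replicates 1, 2 and 3 against 11.2 and 11.2 in the controls. The lowest knockout library was thus still above the controls, which differed from each other by an SD of 0.020 CPM. The log2 fold change was 1.15 (SE 0.39), and 0.70 (SE 0.23) without knockout replicate 1.

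Acot1 and Acot2 followed another order. Acot1 had 12.3, 9.98 and 6.03 CPM in knockout replicates 1, 2 and 3 against 5.24 and 6.33 in the controls, with a log2 fold change of 0.71 (SE 0.31). Knockout replicate 3 lay between the control values, so the groups overlapped. Acot2 had 15.7, 12.8 and 6.28 CPM against 6.21 and 6.09, with a log2 fold change of 0.91 (SE 0.37). Knockout replicate 3 was above the higher Acot2 control by less than 0.1 CPM, so that the separation of the groups rested on replicates 1 and 2.

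**Figure D2:**
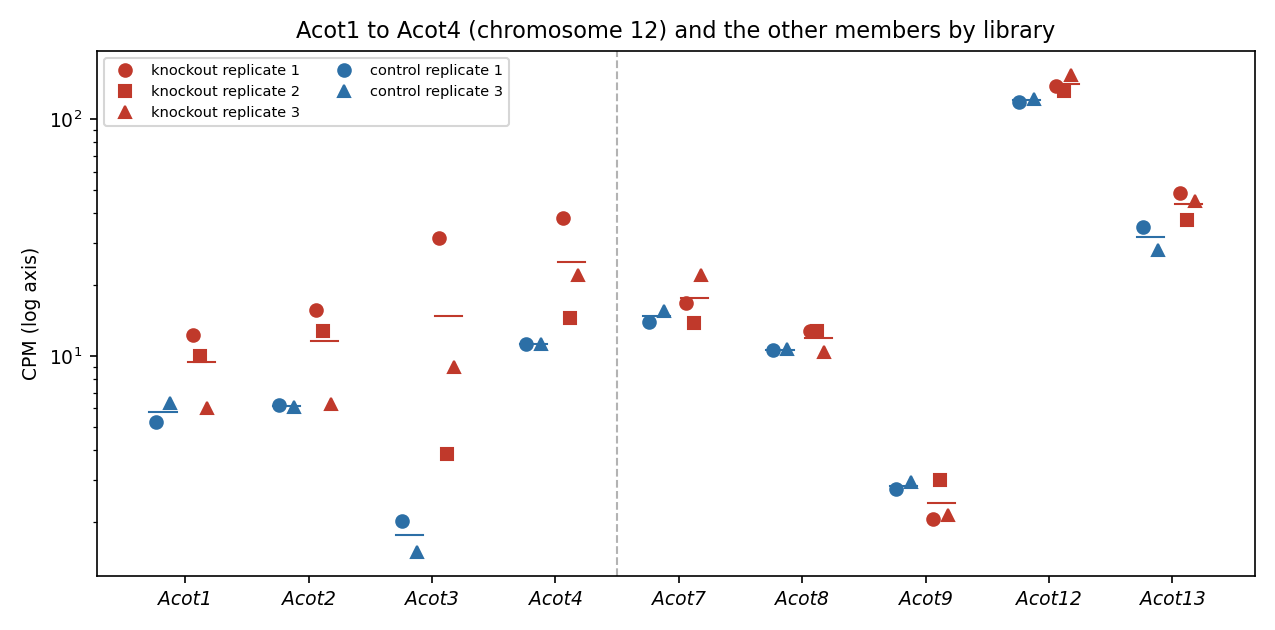
CPM of each member by library, with knockout and control libraries side by side, and the group means. In Acot3 and Acot4 all 3 knockout libraries lie above the controls, whereas in Acot1 knockout replicate 3 lies between them. Levels are to be compared within a gene only.

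The contrast between these pairs is clearest on a log2 scale relative to the control mean. Acot1 stood at 1.09, 0.79 and 0.06 and Acot2 at 1.35, 1.05 and 0.03 in knockout replicates 1, 2 and 3. Acot3 stood at 4.16, 1.14 and 2.36 and Acot4 at 1.77, 0.37 and 0.97. Replicate 2 was thus the lowest knockout library for the peroxisomal Acot3 and Acot4, and replicate 3 the lowest for Acot1 and Acot2.

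Ratios within a library do not depend on scaling. Per kilobase, Acot1 stood at 1.11, 1.10 and 1.35 times Acot2 in the knockout libraries and at 1.19 and 1.46 times in the controls, so the ranges overlapped. Acot3 stood at 0.79, 0.26 and 0.39 times Acot4 in the knockout libraries against 0.17 and 0.13 in the controls, with no overlap. Across the pairs, Acot4 stood at 2.14, 0.99 and 3.07 times Acot2 in the knockout libraries against 1.58 and 1.61 in the controls, so knockout replicate 2 lay below the controls and the other knockout libraries above them. Acot3 stood at 1.53, 0.23 and 0.89 times Acot1 against 0.23 and 0.14, with knockout replicate 2 close to control replicate 1. Acot3 made up 28.5%, 7.62% and 18.2% of the summed per-length level of the 4 genes in the knockout libraries and 6.75% and 4.82% in the controls.

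**Figure D3:**
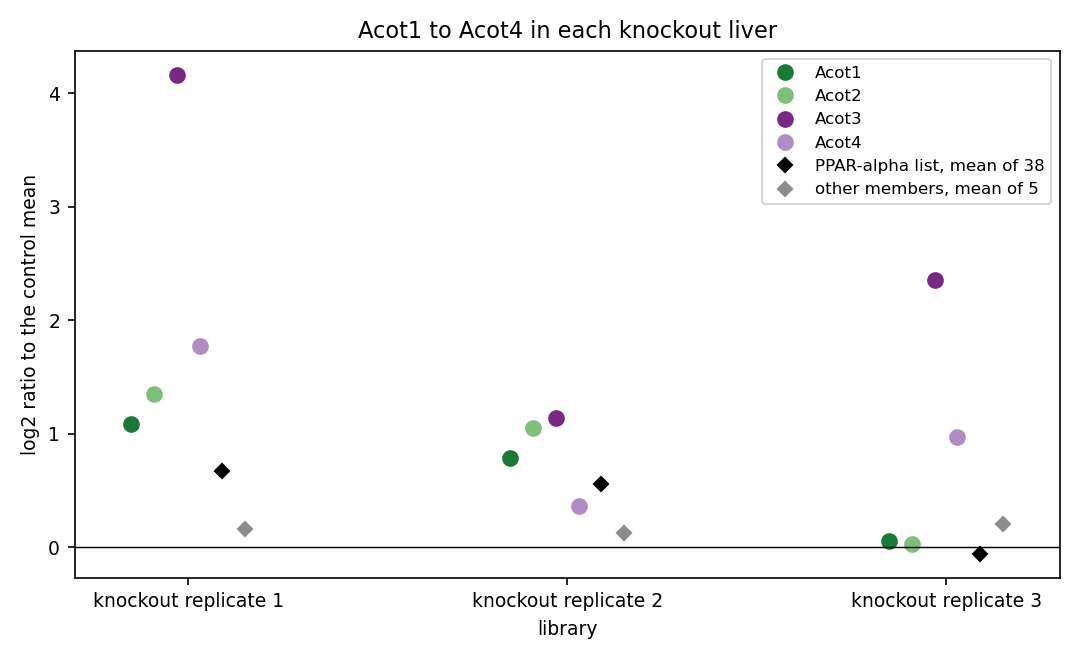
Log2 ratio of Acot1 to Acot4 to the control mean in each knockout library, with the mean of 38 PPAR-alpha list genes and of the other 5 members. Acot1 and Acot2 lie near 0 in replicate 3, where Acot3 is at 2.36 and Acot4 at 0.97.

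The list of PPAR-alpha and its targets, which holds none of the 9 members, ordered the libraries as Acot1 and Acot2 did. The mean log2 level of its 38 genes relative to the controls was 0.67, 0.56 and -0.06 in knockout replicates 1, 2 and 3, and the controls themselves stood at -0.09 and 0.09. None of the 38 genes was called by edgeR, and 4 had an unadjusted p under 0.05 beside 564 of 16441 tested genes. All 38 log2 fold changes were positive, beside 8563 of 16441, in a list chosen with earlier results of these data known. The median log2 fold change was 0.25 beside 0.01 for all tested genes. Fabp1, the liver fatty acid-binding protein, had 4799, 5371 and 4560 CPM against 3667 and 3660, with a log2 fold change of 0.42 (SE 0.17). Ppara itself had 211, 137 and 148 CPM against 152 and 163, so the groups overlapped.

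Genes listed as markers of other tissues and cell types also moved between the libraries. The 6 skeletal muscle markers summed to 26.3 CPM in knockout replicate 1, the library with the most Acot3, and to 0.603 to 1.19 CPM in the other 4 libraries. Among them Ckm, the muscle creatine kinase, had 153 counts there and 0 in every other library, and Acta1 had 300 counts there and 1 to 3 elsewhere. The 8 adipocyte markers summed to 24.0 and 31.8 CPM in knockout replicates 1 and 2, where Acot1 and Acot2 were high, and to 11.4 to 14.0 CPM in the other libraries. Most of that sum was the lipid droplet protein Plin4, at 12.4 and 21.2 CPM there. Fabp4 had 126 to 221 counts and Cidea 24 to 90 counts over the 5 libraries, and the defining markers Adipoq, Lep and Plin1 had at most 1 count in any library. Of the brown fat markers Ucp1 was at 0 in all 5 libraries. Elovl3 reached 262 CPM in knockout replicate 2 against 14.4 to 68.7 CPM elsewhere, with 58.4 and 68.7 CPM in the controls. Which cells made Plin4, Cidea and Elovl3 cannot be told from whole liver. All 8 endothelial markers had negative log2 fold changes (median -0.53). So did all 8 stellate cell, all 5 erythroid, 7 of 8 macrophage, 3 of 5 cholangiocyte and 6 of 10 hepatocyte markers, beside 7878 of 16441 tested genes. The medians were -0.27 for erythroid, -0.17 for macrophage, -0.15 for stellate cell, -0.07 for cholangiocyte and -0.04 for hepatocyte markers. No gene of these lists was called by edgeR. An unadjusted p under 0.05 was reached by 2 endothelial, 1 stellate cell, 1 cholangiocyte, 1 adipocyte (Plin4) and 1 brown fat marker (Ppargc1b). Over all tested genes it was reached by 564 of 16441. The erythroid median was 0.12 without control replicate 1, the macrophage median 0.02 without control replicate 3, and the cholangiocyte median ran from -0.54 to 0.29 with each library left out in turn. The brown fat median, 0.55 over all libraries, was -0.03 without knockout replicate 2. The part of these differences in the Acot values was not tested.

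The 5 members outside the cluster had log2 fold changes between -0.25 and 0.47. Acot13 had 48.7, 37.5 and 45.2 CPM in knockout replicates 1, 2 and 3 against 35.2 and 28.1 in the controls, with a log2 fold change of 0.47 (SE 0.16). Every knockout library lay above both controls, by a gap smaller than the difference between the controls. Acot12 had 137, 131 and 154 CPM against 118 and 122, with a log2 fold change of 0.23 (SE 0.13), again with no overlap.

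Acot7 had 16.7, 13.8 and 22.0 CPM against 13.9 and 15.5, with a log2 fold change of 0.25 (SE 0.21). Acot8 had 12.7, 12.8 and 10.3 CPM against 10.5 and 10.7, with a log2 fold change of 0.17 (SE 0.15). Acot9 had 2.05, 2.99 and 2.12 CPM against 2.73 and 2.95, with a log2 fold change of -0.25 (SE 0.24), the only negative value of the 9. In each of these genes the groups overlapped.

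Of the 9 members, 5 had every knockout library above every control library (Acot2, Acot3, Acot4, Acot12 and Acot13), beside 8.16% of all tested genes. No member was called by edgeR, where 4 had an unadjusted p under 0.05 beside 564 of 16441 tested genes. No member was called by DESeq2, which called 0.0873% of its 20612 tested genes, nor by limma-voom. With knockout replicate 2 left out, DESeq2 gave Acot3 an adjusted p of 0.0277 and Acot4 one of 0.00164. That fit called 48 genes in all. With replicate 3 left out DESeq2 called 68 genes and gave Acot2 an adjusted p of 0.000995. Both fits were added after seeing the data, and each dropped the knockout library that was lowest for the members it called. The median log2 fold change was 1.03 for the cluster genes and 0.23 for the other 5, beside 0.01 for all tested genes. The cluster median was 0.66 without knockout replicate 1. Since these values chose the family, nothing is read from them.

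The cluster held a larger share of the family in each knockout library than in the controls, most clearly in replicate 1. In replicate 3 its share was close to that of the higher control. These are again values that chose the family. The 9 members summed to 167, 126 and 145 CPM per kb in knockout replicates 1, 2 and 3 and to 109 and 102 in the controls. Acot1 to Acot4 held 25.4%, 15.5% and 13.1% of that sum in the knockout libraries and 10.5% and 11.7% in the controls. By the compartment of the encoded enzyme, a grouping chosen after the values were seen, the peroxisomal members Acot3, Acot4 and Acot8 summed to 33.7, 13.7 and 17.4 CPM per kb against 10.5 and 10.4. The mitochondrial members Acot2, Acot9 and Acot13 summed to 75.7, 59.2 and 66.4 against 52.8 and 43.0, and the cytosolic members Acot1, Acot7 and Acot12 to 57.5, 52.7 and 61.0 against 45.7 and 48.3. In order of mean level, Acot3 took place 9 in the controls and 7 in the knockout livers, and Acot4 places 5 and 3. Over knockout replicates 2 and 3 alone, Acot3 took place 8 and Acot4 place 4.

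The remaining cluster genes were at low levels. Acot5, a peroxisomal medium-chain enzyme and the closest relative of Acot3 at 85.8% coding identity, had 1 count in knockout replicate 1 and 0 in every other library, under the 3 counts taken as the floor. Acot6 had 26, 41 and 20 counts in the knockout libraries against 25 and 26, with a log2 fold change of 0.12 (SE 0.36). Acot5 was not tested. The confidence interval of the Acot6 value, from -0.74 to 0.98, held the log2 fold changes of Acot1 (0.71) and Acot2 (0.91). How far the higher values reached along the cluster can thus not be told from Acot5 and Acot6. Among thioesterases elsewhere, Baat, which joins bile acids to amino acids, had a log2 fold change of -0.02 (SE 0.13), Them4 one of 0.11 (SE 0.16) and Acot10 one of 0.29 (SE 0.32). Acot11, also known as Them1, had 320, 354 and 393 counts against 91 and 503, so the controls alone spanned all knockout values.

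Genes around the cluster were compared by position, within 200 kb of the span from Acot2 to Acot6. Of 12 such genes 8 were tested, none was called by edgeR, none had an unadjusted p under 0.05, and their median log2 fold change was 0.12. Numb, an adaptor of Notch signalling upstream, stood at 0.01 (SE 0.13), Dnal1 just beyond Acot6 at 0.04 (SE 0.37) and Ptgr2 at 0.08 (SE 0.13). The highest value was that of 4732463B04Rik, the antisense gene of Acot4 and Acot3, at 0.82 (SE 0.42). It had 188, 81 and 126 counts in knockout replicates 1, 2 and 3 against 92 and 54, the same order of knockout libraries as Acot4. The processed pseudogene Gm8385, which shares 50-base words with Acot3, had 26, 2 and 9 counts against 1 and 0. Knockout replicate 2 and the controls were under the floor of 3 counts and the gene was not tested, so no order is read from it.

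**Figure D4:**
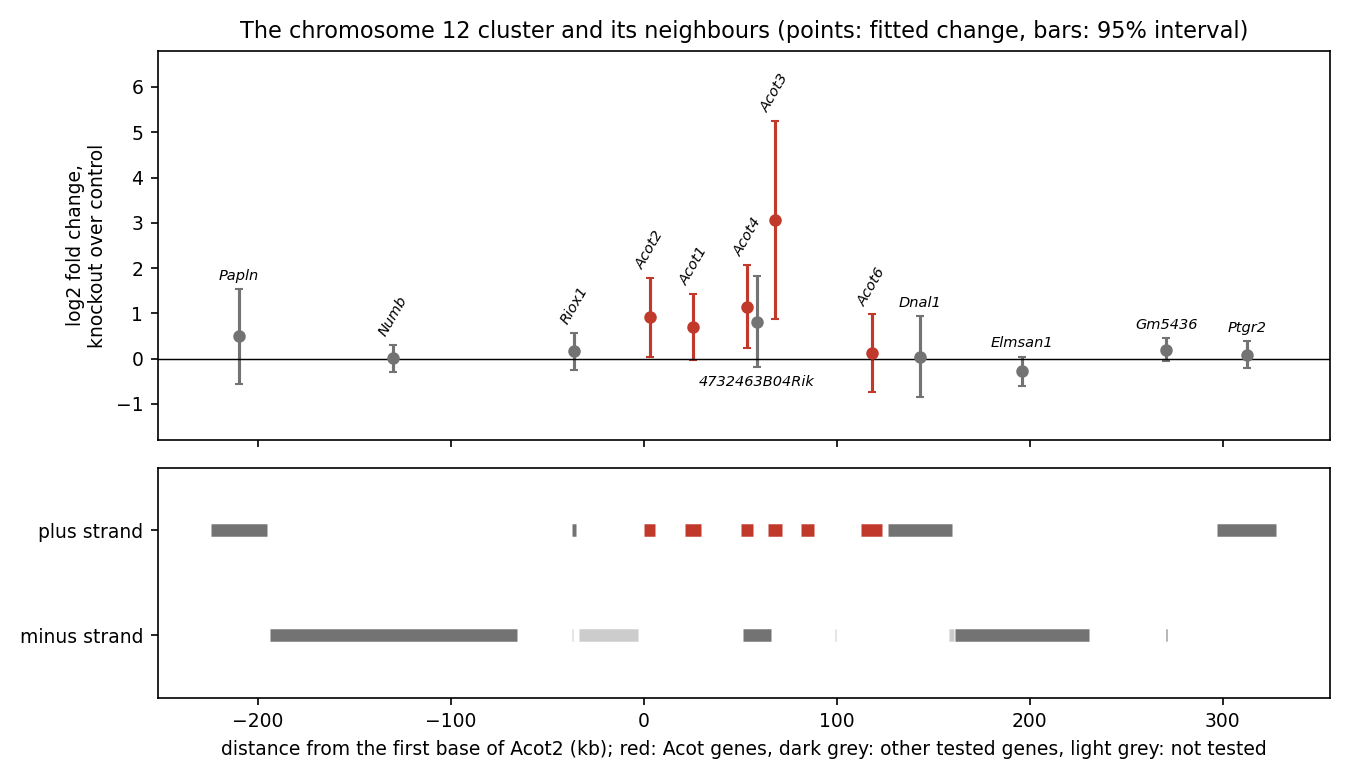
Log2 fold change with 95% interval (upper panel) of tested genes around the cluster, and their position by strand (lower panel), against the distance in kilobases from the first base of Acot2. Acot3 and Acot4 have the highest values, and Acot6 stands at 0.12 and the flanking genes between -0.28 (Elmsan1) and 0.49 (Papln).

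The genes of the opposite reaction were looked at next. Of 19 tested acyl-CoA synthetases none was called, none had an unadjusted p under 0.05, and the log2 fold changes ran from -0.70 to 0.62 with a median of 0.07. Slc27a5, the bile acyl-CoA synthetase, stood at -0.04 (SE 0.15), Slc27a2, which activates very long chains, at 0.04 (SE 0.14) and Acsm1 at 0.17 (SE 0.15). Of 17 tested genes of CoA synthesis and breakdown none was called, 1 had an unadjusted p under 0.05, and the log2 fold changes ran from -0.18 to 1.54 with a median of 0.13. In 5 of the 17 every knockout library was above every control, and in 0 every one was below. These numbers were 4 and 1 for the 19 synthetases and 5 and 0 for the 38 PPAR-alpha list genes. They were 2 and 1 for 22 peroxisomal oxidation genes. Over all 16441 tested genes they were 1342 (8.16%) and 1434. Nudt7, the peroxisomal CoA hydrolase, stood at -0.18 (SE 0.21) and the acyl-CoA-binding protein Dbi at 0.18 (SE 0.19).

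Peroxisomal oxidation genes, the partners of Acot3, Acot4 and Acot8 in that organelle, had a median of 0.15 over 22 genes, with none called and 1 at an unadjusted p under 0.05. The mean log2 level of the list relative to the controls was 0.35, 0.32 and -0.09 in knockout replicates 1, 2 and 3. This is the order of Acot1 and Acot2 rather than that of the peroxisomal Acot3 and Acot4, with replicates 1 and 2 close together. No difference between these orders was tested. The related lists share some genes, so an order found in several of them is not found independently.

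Genes of like pattern were sought over 13680 genes by the root-mean-square difference of centred log2 CPM over the 5 libraries. The mean log2 level of Acot1 to Acot4 stood at 2.09, 0.84 and 0.86 in knockout replicates 1, 2 and 3 relative to the controls. With replicates 2 and 3 nearly level, this is the profile of neither pair. For that mean the nearest were Cfap54 (0.18), Gm44706 (0.24), Bcl6 (0.26), Mfsd2a (0.29), Elovl6 (0.30) and Gm11295 (0.31). Cfap54 had 0.609 to 2.60 CPM and Gm11295 0.784 to 3.19 CPM over the 5 libraries, so these matches rest on low levels. Bcl6, a transcriptional repressor, had 52.1, 17.0 and 21.9 CPM in knockout replicates 1, 2 and 3 against 16.5 and 13.6 in the controls. Elovl6, a fatty acid elongase, had 311, 144 and 213 CPM against 95.04 and 122. For Acot3 alone no gene came closer than 0.82 (Gm20426, at 0.372 to 2.96 CPM). Acot4 stood at 0.92, nearer than Acot2 at 1.26 and Acot1 at 1.31. The skeletal muscle marker Mylpf, at 0.96, was the gene in place 4 by likeness to Acot3, with 3.12 CPM in knockout replicate 1 and 0.482 to 0.937 CPM in the other libraries.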

How the data were processed

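Total liver RNA was sequenced after TruSeq preparation on an Illumina instrument, per the labels' protocols. The authors deposited whole-number counts per gene with summed exon lengths. Trimmomatic 0.33, Subread 1.4.6-p4, featureCounts 1.4.6-p4, FastQC and the build mm10 (GRCm38) are named in the submitters' processing notes. The annotation release, strand setting and treatment of reads that match several genes were not given in the sources used here. GENCODE vM21 gave symbols for 46488 of 46983 rows. All 37 mitochondrial rows held 0.

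The 3 knockout and 2 distinct control libraries were fitted with edgeR 4.0.16 (TMM, filterByExpr, quasi-likelihood test, Benjamini-Hochberg over 16441 genes, threshold 0.05), which was tested on simulated data. DESeq2 1.42.0 and limma 3.58.1 were alternatives. Coding sequences were aligned with Biopython 1.88. The members and lists were chosen with earlier results of these data known. Named were the members, other thioesterases, Mtdh and genes within 200 kb of the cluster. Also named were the 3 highest genes per length of each list, any called, and the 6 genes nearest in pattern. Ppara, Ckm, Acta1, Adipoq, Lep, Plin1 and Ucp1 were added beside results. The p-values set the difference between the groups against the spread between these libraries, with only 2 distinct controls.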

Additional observations from a re-analysis of the deposited data

How the results depend on the processing

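Over 19 alternative settings no member changed direction. Log2 fold changes ranged from 1.87 to 3.53 for Acot3, 0.70 to 1.43 for Acot4, 0.63 to 1.21 for Acot2, 0.47 to 0.94 for Acot1, 0.05 to 0.40 for Acot7 and -0.44 to -0.15 for Acot9. The edgeR fit called 1 gene, 3 without the low-count filter, and 1 to 6 with each library left out (6 without control replicate 3); DESeq2 called 18. Leaving out knockout replicate 1 gave 6 DESeq2 calls, replicate 2 gave 48 and replicate 3 gave 68, and leaving out control replicate 1 gave 26 and replicate 3 gave 144. Members called were 0 in every edgeR and limma-voom setting, and 0 to 2 by DESeq2 with each library left out (2 without knockout replicate 2, 1 without knockout replicate 3), settings added after seeing the data. Genes of the related lists called were 0 by edgeR, 1 by DESeq2 (Ckm) and 0 to 7 by DESeq2 with each library left out (7 without knockout replicate 3, 5 without control replicate 3). With the replicate block 0 genes were called, Mtdh included, and Acot3 stood at 3.32. The labels do not say that a number marks a shared litter or day. For the 2 numbers shared by distinct libraries, the deviations correlated at 0.076 and 0.158. With 2 controls the value for one is that for the other with its sign turned, so whether the numbers mark a pairing cannot be told. With lengths over unshared positions 6 of 9 members kept their place in the control order. Within 500 kb of the cluster 0 of 22 genes were called. Fits without a control assume that the lone control varies like the knockout libraries. The cause of these changes was not tested.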
